A study of Homo sapiens with 6 samples.

Results

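IR-PAR-CLIP libraries of IGF2BP3 and of control IgG that received the same RNase I treatment were compared at the places where the IgG library had clusters. All 25 clusters of the IgG library were taken, of 244645 clusters in the 6 libraries of the series, and each was set against the 43385 clusters of the IGF2BP3 library. Both libraries came from HCT116 Tet-OsTIR1-PURO cells, a human colorectal carcinoma line, labelled with 100 µM 4-thiouridine (4sU) for 15 h and irradiated at 365 nm. RNase I was used at 0.1 U/µL in the lysate and at 0.025 U/µL on the beads, with a Proteintech anti-IGF2BP3 antibody in one library and a Proteintech IgG control in the other. The title of the control sample also carries the name IGF2BP3, and its antibody field names the IgG control. In the study's tests by western blot and mass spectrometry, the anti-IGF2BP3 antibody partially recognised the paralog IGF2BP2. Per its methods, RNA was taken from the gel region of crosslinked IGF2BP3, and IgG libraries typically needed more PCR cycles than IGF2BP3 libraries. The 4 other IGF2BP3 libraries, which had RNase I at 0.05/0.05 or 0.05/0.025 U/µL or RNase T1 at 1/1 or 0.25/0.25 U/µL, are given side by side where they bear on a place. As each condition had 1 library, no test between antibodies was possible, and every interval below covers counting error only.

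IGF2BP3 is one of 3 paralogous RNA-binding proteins that carry RNA recognition motifs and KH domains and bind mRNAs, mostly in 3′UTRs, where they influence stability, localisation and translation. In PAR-CLIP, 4sU in the RNA crosslinks to the bound protein, and reverse transcription reads a crosslinked 4sU as cytidine, so that crosslinked positions appear as T-to-C conversions against the genome. PARalyzer groups reads that carry such conversions into clusters. An IgG precipitation gives the RNA that is recovered without an antibody to the protein of interest. Transfer RNAs and mitochondrial ribosomal RNAs are among the most abundant RNAs of a cell, and the nuclear genome holds many copies of mitochondrial sequence.

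The IgG library held 324 reads in its 25 clusters, which had 4 to 41 reads, lengths of 31 to 107 nt and 2 to 10 conversion positions. The IGF2BP3 library held 803490 cluster reads, 2480 times as many. Conversions per read, the number of T-to-C events divided by the number of reads, were 0.623 in IgG clusters (202 events) and 0.644 over all IGF2BP3 clusters. Every cluster sequence of both libraries was identical to GRCh38 at its position. Epithelial markers were thinly covered in the IGF2BP3 library, with clusters in EPCAM (40 reads), KRT8 (64 reads) and KRT18 (12 reads) and none in CDH1, VIL1 and CDX2. None of the 6 leukocyte, fibroblast and endothelial markers had a cluster, and clusters measure bound RNA rather than expression.

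Clusters at tRNA loci held the largest share of the IgG reads. The IgG clusters at tRNA loci are shown first because most of them stop just beyond the annotated gene, where the mature tRNA carries the added trinucleotide CCA. In these sequences, written 5′ to 3′ on the RNA strand from GRCh38, capitals mark the bases that lie past the 3′ end of the tRNA gene.
TRX-CAT1-1, chr1:153671283-153671324, plus strand: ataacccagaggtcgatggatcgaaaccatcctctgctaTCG
TRX-CAT1-5, chr6:27332982-27333022, minus strand: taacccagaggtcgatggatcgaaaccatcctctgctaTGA
TRN-GTT2-5, chr17:38751778-38751818, minus strand: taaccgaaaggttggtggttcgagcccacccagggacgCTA
TRE-TTC1-1, chr2:130337125-130337163, minus strand: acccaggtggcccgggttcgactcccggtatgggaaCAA
TRA-AGC3-1, chr6:28607191-28607230, plus strand: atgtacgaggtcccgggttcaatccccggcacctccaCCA
TRA-TGC2-1, chr6:28643481-28643518, plus strand: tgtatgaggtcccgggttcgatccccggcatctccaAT
TRR-CCG2-1, chr17:68019937-68019970, minus strand: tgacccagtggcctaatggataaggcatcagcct

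Of the 25 IgG clusters, 7 lay at tRNA loci, 4 on the mitochondrial chromosome, 3 at nuclear copies of mitochondrial sequence, 9 in mRNAs and 2 outside annotated genes on their strand. The tRNA loci held 143 of the 324 IgG reads (44.1%, 95% Wilson interval 38.8% to 49.6%), whereas in the IGF2BP3 library 112 clusters at tRNA loci held 2711 reads (0.337%, 0.325% to 0.350%). The mitochondrial chromosome held 18.5% of the IgG reads (14.7% to 23.1%) and 1.75% of the IGF2BP3 reads (1.72% to 1.78%). Nuclear copies of mitochondrial sequence, defined by at most 3 mismatches over the whole cluster, held 8.64% (6.05% to 12.2%) against 0.724% (0.706% to 0.743%). Reads of the IgG clusters in this class cannot be told apart from mitochondrial reads. Messenger RNAs held 20.1% of the IgG reads (16.1% to 24.8%) and 83.7% of the IGF2BP3 reads (83.6% to 83.7%). The IgG library had no cluster in introns or in exons of non-coding genes apart from those classes, where the IGF2BP3 library had 2.62% and 4.82% of its reads. The intervals of the 2 libraries did not overlap for these 4 classes, and did overlap outside genes (8.64%, 6.05% to 12.2%, against 6.09%, 6.04% to 6.14%).

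**Figure D1:**
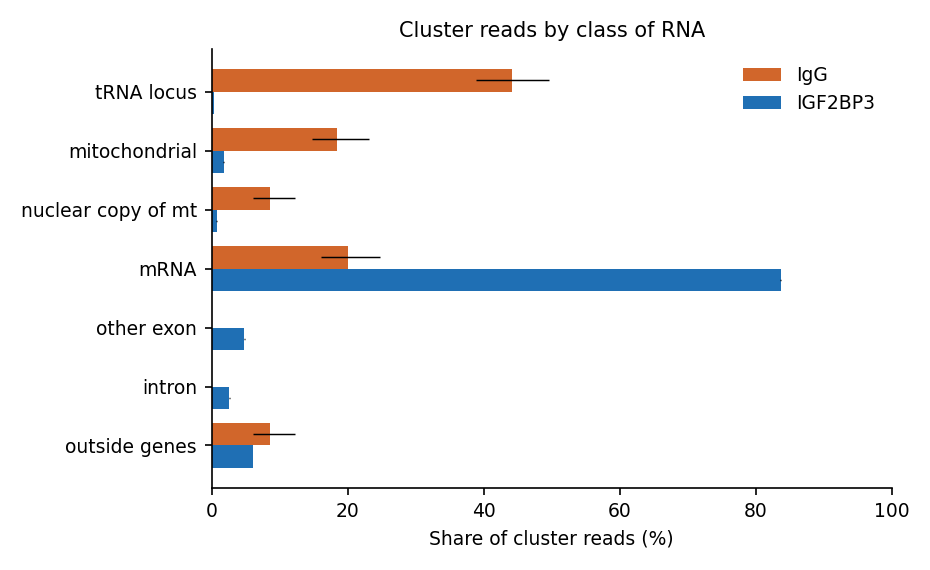
Share of cluster reads (x axis, %) in each class of RNA (y axis) for the IgG and IGF2BP3 libraries, with 95% Wilson intervals as error bars. IgG reads are spread over tRNA (44.1%), mRNA (20.1%) and mitochondrial (18.5%) clusters, and IGF2BP3 reads lie mainly in mRNA (83.7%).

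An IGF2BP3 cluster lay at 24 of the 25 places on the same strand. These were 23 distinct clusters, or 0.0530% of all IGF2BP3 clusters, and they held 16476 reads (2.05% of the IGF2BP3 reads). Summed over the places, the IGF2BP3 library had 50.9 reads for each IgG read (95% exact binomial interval 45.6 to 56.9). The ratio differed strongly between the classes. It was 3.73 at tRNA loci (3.10 to 4.52), 12.8 at nuclear copies of mitochondrial sequence (8.72 to 19.6), 27.6 on the mitochondrial chromosome (21.3 to 36.3) and 213 in mRNAs (167 to 276). The highest ratio at a single place was 582, beside 2480 for all cluster reads of the 2 libraries. The places were taken because IgG had a cluster there, so these ratios do not measure enrichment by the IGF2BP3 antibody. IGF2BP3 clusters were also longer, covering 5239 nt at these places compared with 1109 nt of IgG clusters, and in mRNAs 3779 nt compared with 465 nt. When the reads of an IGF2BP3 cluster were scaled by the share of its length under the IgG cluster, the median ratio was 22.1 in mRNAs (10.3 to 98.3 over places), 5.56 at nuclear copies of mitochondrial sequence (3.97 to 9.06), 4.03 on the mitochondrial chromosome (0.672 to 9.04) and 1.95 at tRNA loci (1.24 to 5.60). Without the scaling the medians were 13.3 at nuclear copies and 24.8 on the mitochondrial chromosome, so that their order turned.

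**Figure D2:**
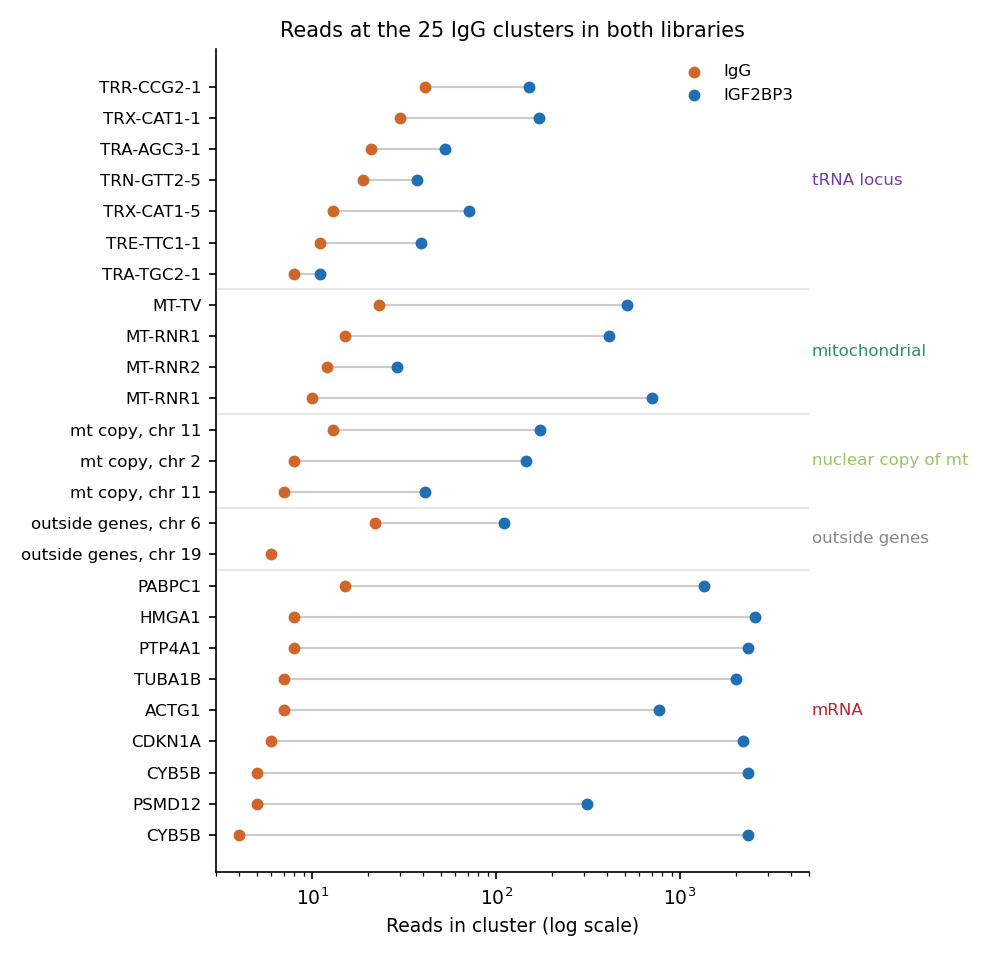
Reads (x axis, log scale) in the cluster of the IgG library and in the overlapping cluster of the IGF2BP3 library at each of the 25 IgG places (y axis), grouped by class and joined by a line. At tRNA loci the paired points lie 1.38 to 5.73 times apart and in mRNAs 62.0 to 582 times apart, and a place on chromosome 19 has only an IgG point.

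Transfer RNAs deliver amino acids to the ribosome, and the initiator methionine tRNA starts translation. The IgG cluster with the most reads lay on TRR-CCG2-1, an arginine tRNA gene, with 41 reads in IgG and 151 in IGF2BP3. Unlike the others, it covered the 5′ part of its tRNA and stopped 40 nt before the end of the gene.

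TRX-CAT1-1, an initiator methionine tRNA gene, had 30 IgG reads and 172 IGF2BP3 reads. TRX-CAT1-5, a second gene of this tRNA, had 13 and 71 reads. The alanine tRNA gene TRA-AGC3-1 had 21 and 53 reads. These 3 loci had between 2.52 and 5.73 IGF2BP3 reads for each IgG read.

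The asparagine gene TRN-GTT2-5 had 19 reads in IgG and 37 in IGF2BP3. The glutamate gene TRE-TTC1-1 had 11 and 39 reads, and the alanine gene TRA-TGC2-1 had 8 and 11. TRA-TGC2-1 thus showed the smallest ratio of whole-cluster reads, 1.38. Within the IGF2BP3 library, the clusters at TRX-CAT1-1 and TRR-CCG2-1 had the most and second most reads of the 112 tRNA clusters, and those at TRX-CAT1-5, TRA-AGC3-1, TRE-TTC1-1, TRN-GTT2-5 and TRA-TGC2-1 ranked 5, 11, 19, 21 and 69. The 7 IgG loci held 534 of the 2711 IGF2BP3 tRNA reads (19.7%). Over the 443 nuclear tRNA loci of RefSeq, the IgG library had clusters at 7 (1.58%) and the IGF2BP3 library at 108 (24.4%). All 7 were also found in the RNase I 0.05/0.05 and 0.05/0.025 U/µL libraries, and 6 in all 5 IGF2BP3 libraries, TRA-TGC2-1 being without a cluster in RNase T1 1/1 U/µL. By position, the closest protein-coding genes were ILF2 (255 nt from TRX-CAT1-1), CCDC115 (770 nt from TRE-TTC1-1), PSMB3 (923 nt from TRN-GTT2-5), KPNA2 (15666 nt from TRR-CCG2-1), POM121L2 (20709 nt from TRX-CAT1-5) and SCAND3, which spans TRA-AGC3-1 on the opposite strand and lies 27269 nt from TRA-TGC2-1. At TRX-CAT1-1 the other libraries had 598, 200, 121 and 10 reads in the order RNase I 0.05/0.05, 0.05/0.025, RNase T1 1/1 and 0.25/0.25 U/µL, with 1.25 to 1.51 conversions per read.

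The other 6 IgG tRNA clusters covered the 3′ part of the tRNA, starting at positions 34 to 37 of the gene. Of these, 5 ended exactly 3 nt past the gene and that of TRA-TGC2-1 ended 2 nt past it. In the IGF2BP3 library 55 of 105 clusters on the strand of a tRNA gene (52.4%) passed the 3′ end, 20 of them by exactly 3 nt.

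The genomic bases that follow a tRNA gene are usually not CCA, so that a mature tRNA can differ from the genome there. Compared with its own gene followed by CCA, the TRX-CAT1-1 cluster carried the substitutions C40T and A42G, counted from 1 at the 5′ end of the cluster with the base of the mature tRNA first. The TRX-CAT1-5 cluster carried C39T and C40G, TRN-GTT2-5 carried C40T, TRA-TGC2-1 carried C37A and C38T, TRE-TTC1-1 carried C38A, and TRA-AGC3-1 carried none. In 4 of these clusters the genome therefore had T at a position where CCA has C, a difference that a read of the mature tRNA shares with a crosslinked 4sU.

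In IgG, clusters that ended 1 to 3 nt past the gene had 1.11 conversions per read where the genome had such a T (4 clusters, 70 reads, 95% exact Poisson interval 0.881 to 1.39). Of these 4, TRA-TGC2-1 stood at 0.375 (3 events in 8 reads), and the initiator genes TRX-CAT1-1 and TRX-CAT1-5 gave 40 and 15 of the 78 events. Clusters of this kind had 0.219 where the genome had no such T (2 clusters, 32 reads, 0.0879 to 0.451). The IGF2BP3 library had 0.863 in 20 clusters with such a T (0.797 to 0.933, single clusters 0.235 to 1.52) and 0.327 in 11 clusters without (0.274 to 0.387). IGF2BP3 clusters that did not pass the gene end had 0.422 (50 clusters, 0.383 to 0.463), and those that ended over 3 nt past it had 0.602 (24 clusters, 0.534 to 0.677). The pooled intervals with and without such a T did not overlap in either library, whereas the ranges of single clusters did overlap in IGF2BP3 (0.105 to 0.464 without such a T). These groups were formed after the values were seen, and the part of unconverted CCA ends in the conversion counts was not tested. Of the 385 tRNA loci with an assigned strand, 165 had such a T, and 4 of these held an IgG cluster (2.42%) and 55 an IGF2BP3 cluster (33.3%). Of the 220 loci without it, 3 held an IgG cluster (1.36%) and 46 an IGF2BP3 cluster (20.9%).

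**Figure D3:**
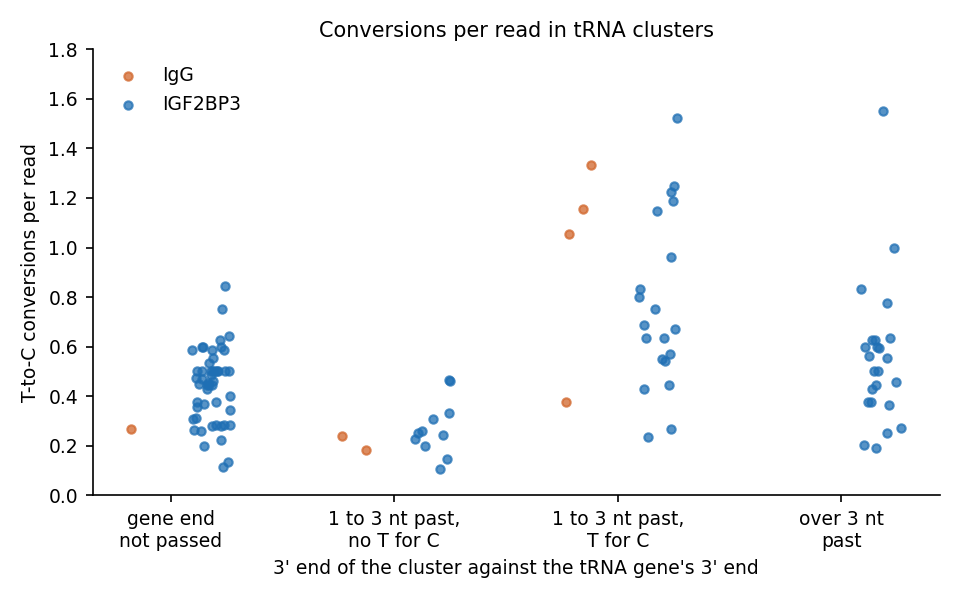
T-to-C conversions per read (y axis) of single tRNA clusters in the IgG and IGF2BP3 libraries, grouped by where the cluster ends against the 3′ end of the tRNA gene (x axis) and by whether the genome has T where CCA has C. Among clusters that end 1 to 3 nt past the gene, the 5 IGF2BP3 and 3 IgG values above 1 lie in the group with such a T, and TRX-CAT1-5 (1.55) lies above 1 in IGF2BP3 among clusters that end further past; points are spread sideways only to separate them.

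Both clusters outside annotated genes resembled tRNAs. They are shown because neither lies at a RefSeq tRNA locus. Capitals are not used in this pair.
Chromosome 6, chr6:56322844-56322885, plus strand: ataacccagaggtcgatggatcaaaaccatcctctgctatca
Chromosome 19, chr19:51922140-51922180, minus strand: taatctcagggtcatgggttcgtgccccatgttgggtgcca

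The cluster on chromosome 6 lay within COL21A1 but on the opposite strand, and differed from TRX-CAT1-1 followed by CCA at 2 positions, G23A and C40T. It had 22 IgG reads and 111 IGF2BP3 reads, with 1.09 (0.699 to 1.62) and 1.36 (1.15 to 1.60) conversions per read. This place had clusters in all 5 IGF2BP3 libraries, as had TRX-CAT1-1 and TRX-CAT1-5. The cluster on chromosome 19 lay 4967 nt from ZNF613. Its closest tRNA was the lysine tRNA TRK-CTT2-1, with 4 mismatches (G14A, A23T, C30T and C37T), at 2 of which the genome has T where the tRNA has C. It had 6 reads and 10 conversion events in IgG, or 1.67 conversions per read (0.799 to 3.07), and it was the only IgG cluster without a cluster in any of the 5 IGF2BP3 libraries. The files list only clusters that the caller kept, so reads below its minimum cannot be seen there.

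The 3 initiator-like places share most of their sequence. With at most 3 mismatches over its 42 nt, the TRX-CAT1-1 cluster had 9 other places in the genome, 7 of them at tRNA loci, and 2 of the 9, TRX-CAT1-5 and the place on chromosome 6, held a cluster in either library. Of the 8 initiator methionine loci with an assigned strand, 5 had T where CCA has C, and TRX-CAT1-1 and TRX-CAT1-5 were the loci with clusters in both libraries. None of the 3 loci without such a T had a cluster. How reads that match several copies were assigned is not given in the sources used here, so the reads of one copy cannot be told apart from those of the others.

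The mitochondrial clusters lay in both rRNAs and a tRNA. The mitochondrial genome encodes both rRNAs of its own ribosome, MT-RNR1 (12S) and MT-RNR2 (16S), with the valine tRNA MT-TV between them. The sequences of an IgG cluster in MT-RNR1 and of its nuclear copy on chromosome 11 are shown because they differ at a single base, given in capitals.
Mitochondrial, chrM:649-693, plus strand: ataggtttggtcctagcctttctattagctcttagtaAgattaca
Nuclear copy, chr11:10510164-10510208, minus strand: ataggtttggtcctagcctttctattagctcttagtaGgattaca

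The MT-RNR1 cluster at chrM:649-693 had 10 IgG reads and 703 IGF2BP3 reads. The nuclear copy on chromosome 11, which carries A38G against it, had 7 and 41 reads. Another copy, at chr2:148881774-148881818 on the minus strand within an exon of the non-coding gene ENSG00000289474, was identical to chrM:650-694 and had 8 and 145 reads. The second MT-RNR1 cluster, at chrM:1441-1475, had 15 IgG reads and 410 IGF2BP3 reads, though the IGF2BP3 cluster covered only 17.1% of it. Its identical copy at chr11:10509384-10509417 on the minus strand had 13 and 173 reads. The copies on chromosome 11 lay 1465 nt from RNF141 and 1805 nt from AMPD3, and the copy on chromosome 2 lay within KIF5C on the opposite strand. All 3 nuclear copies thus had an IgG cluster on the mitochondrial sequence they resemble, and in each of these sets the IgG reads were of similar number on both. As the treatment of reads with several alignments is not given, reads of these copies cannot be told apart from those of MT-RNR1. Their separate read numbers, ratios and conversions per read are therefore not those of a distinct RNA.

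MT-TV, at chrM:1611-1654, had 23 IgG reads and 511 reads of an IGF2BP3 cluster that ran on into MT-RNR2. MT-RNR2, at chrM:1758-1795, had 12 IgG reads and 29 IGF2BP3 reads, a ratio of 2.42, or 1.21 when scaled by length. At chrM:1441-1475, where little of the IgG cluster was covered, the scaled ratio was 0.672, against 27.3 unscaled. MT-RNR2 as a gene had 3949 cluster reads in the IGF2BP3 library. Its strongest cluster, with 1802 reads and 0.0377 conversions per read, lay at chrM:3113-3265 and ran past the gene's end at position 3229. Conversions per read at the 4 mitochondrial places were 0.300 in IgG (0.178 to 0.474) and 0.298 in IGF2BP3 (0.272 to 0.325). At the nuclear copies they were 0.393 (0.196 to 0.703) and 0.270 (0.219 to 0.330). In both libraries these pooled values were lower than in mRNA clusters. For IgG the interval at the nuclear copies overlapped that in mRNA (0.662, 0.479 to 0.891). Each cluster was counted for a single gene. By this count 26 of all 37 mitochondrially encoded genes had an exonic IGF2BP3 cluster, and 14 of these 26 met the target criteria used below. MT-TV was not among the 26, because the IGF2BP3 cluster over it was counted for MT-RNR2. An IgG cluster was held by 3 of the 37, namely MT-RNR1, MT-RNR2 and MT-TV. Over all genes with an exonic cluster 63.7% met the criteria and 0.152% held an IgG cluster, and MT-TV is not in that base.

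The 9 mRNA clusters of the IgG library lay in 8 genes, and 8 of the 9 lay in the 3′UTR of the canonical transcript. Stretches of at most 30 nt from 4 of them are given on the RNA strand because they hold the tetramer CATT (CAUU in RNA, capitals), one of the motifs reported for IGF2BP proteins. In the study CAUU was the strongest motif with RNase T1. With RNase I, the enzyme of both libraries compared here, the strongest was CAGU.
HMGA1, chr6:34245874-34245903, plus strand: tcaatgttcCATTcttcgacatccgtCATT
ACTG1, chr17:81510118-81510147, minus strand: ttgCATTtacgcctgtaaatgtattCATTc
PTP4A1, chr6:63580674-63580703, plus strand: atgtttacatctcccaCATTcataccaata
PSMD12, chr17:67340571-67340600, minus strand: cccagatatgtttttctatCATTtgaaacc

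On the RNA strand, CATT stood in 4 of the 9 IgG mRNA clusters (44.4%) and in 38.5% of the 27714 IGF2BP3 mRNA clusters of 31 to 107 nt. CAGT stood in 1 of 9 (11.1%) and in 31.8%. Among the 16 IgG clusters outside mRNAs, 0 held CATT and 1 held CAGT (6.25%), compared with 30.4% and 23.0% of the 2104 IGF2BP3 clusters outside mRNAs of 34 to 45 nt. These shares rest on few IgG clusters and are descriptions. The 16 IgG clusters were tRNA, tRNA-like or mitochondrial sequences, some of them near-copies of each other. Over all lengths, IGF2BP3 clusters outside mRNAs lay mostly outside genes (3198), in other exons (2076) and in introns (1477). The sets thus differ in composition.

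The IgG clusters in mRNAs lay within some of the strongest IGF2BP3 clusters, but not over their strongest positions. The strongest positions of the 2 libraries lay 81 nt apart at PTP4A1, 807 nt apart at CDKN1A and in between at the other mRNA places. Reads and ranks given here for IGF2BP3 are those of the whole cluster. HMGA1, which encodes an architectural chromatin protein and is a known IGF2BP target, had 8 IgG reads at chr6:34245874-34245912, inside an IGF2BP3 cluster of 2544 reads that ranked 2 of all 43385. PTP4A1, a protein tyrosine phosphatase gene, had 8 IgG reads in a cluster of 2333 reads, ranked 4. CYB5B, which encodes an outer mitochondrial membrane cytochrome, had 2 IgG clusters of 4 and 5 reads, both inside a single IGF2BP3 cluster of 2330 reads ranked 5. All of these lay in 3′UTRs.

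CDKN1A, the gene of the cyclin-dependent kinase inhibitor p21, had 6 IgG reads in a cluster of 2184 reads, ranked 7. TUBA1B, an alpha-tubulin gene, had 7 IgG reads in a cluster of 2003 reads, ranked 9. PABPC1, the cytoplasmic poly(A)-binding protein, had the most IgG reads of any mRNA, 15, in a cluster of 1349 reads ranked 14, at a place that is coding sequence in the canonical transcript and 3′UTR in another. ACTG1, the gene of gamma-actin, had 7 IgG reads in a cluster of 766 reads, ranked 29. PSMD12, a subunit of the proteasome lid, had 5 IgG reads in a cluster of 310 reads, ranked 176. By cluster, PABPC1 had the most IgG reads and HMGA1 the most IGF2BP3 reads, whereas by gene PABPC1 also had the most IGF2BP3 reads (6270). The PABPC1 IgG cluster was the longest, at 107 nt, and the other IgG mRNA clusters had 4 to 8 reads. No order is read from these counts.

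Each of the 9 mRNA places also had a cluster in every one of the 5 IGF2BP3 libraries. At HMGA1 the other libraries had 5244, 2070, 356 and 367 reads in the order RNase I 0.05/0.05, 0.05/0.025, RNase T1 1/1 and 0.25/0.25 U/µL, and at CDKN1A 1171, 1672, 1427 and 106 reads. These libraries differ in depth, from 182448 to 2362467 cluster reads. Over their whole length 8 of the 9 IgG mRNA clusters had no other place in the genome with at most 3 mismatches. The exception was HMGA1, with 4 such places, each under an IGF2BP3 cluster of 16 to 421 reads. Reads can be shorter than these clusters, and copies of single reads were not searched. In the 40 nt around the strongest position of its top IGF2BP3 cluster, ACTG1 had 11 such places (2 identical). By the same measure TUBA1B and PABPC1 had 3 each (1 identical each), HMGA1 had 2, and CYB5B, PTP4A1, CDKN1A and PSMD12 had none. For PABPC1 and CDKN1A this top cluster lay elsewhere than the IgG cluster. Unique placement of reads in the IgG mRNA clusters is thus not shown.

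Conversions per read in mRNA were close in the 2 libraries, 0.662 in IgG (43 events in 65 reads, 0.479 to 0.891) and 0.661 in IGF2BP3 (0.647 to 0.674). Single places ranged from 0.375 to 0.800 in IgG and from 0.601 to 0.704 in IGF2BP3. At all 24 shared places the intervals of the 2 libraries overlapped, with the IGF2BP3 value higher at 15 and the IgG value at 9. More than 1 conversion per read was found at 5 IgG places, namely TRX-CAT1-1, TRX-CAT1-5, TRN-GTT2-5 and both clusters outside genes. The 4 of them that had an IGF2BP3 cluster were above 1 there too, between 1.19 and 1.55, and no other place was. At IgG read numbers of 4 to 41, differences in conversions of less than about the width of these intervals could not be detected. Clusters are called from reads with conversions, and each IgG cluster had at least 2 conversion positions. At 4 to 15 reads per IgG mRNA cluster, this calling alone sets a floor on conversions per read. The close values in mRNA therefore do not measure equal crosslinking, which was not tested.

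**Figure D4:**
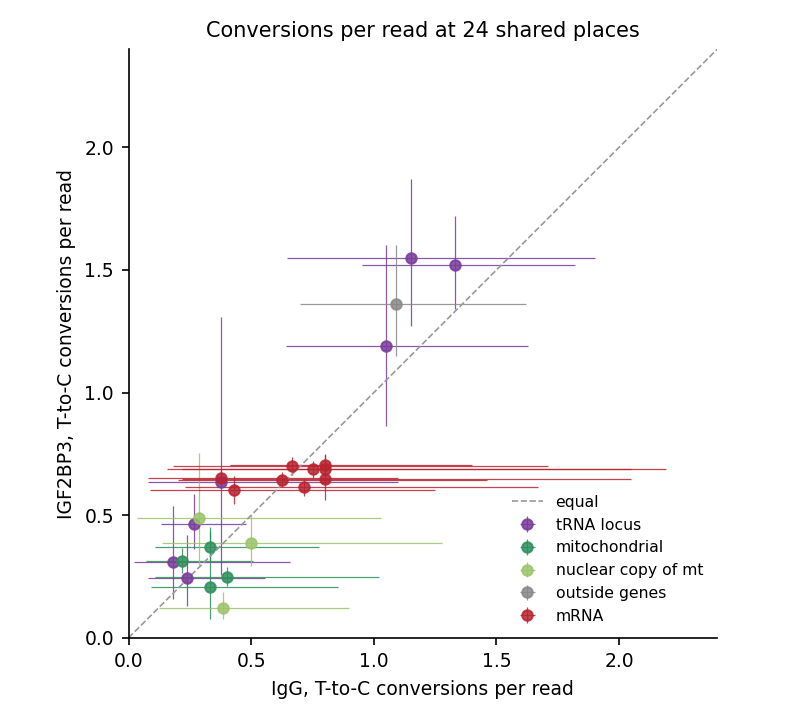
T-to-C conversions per read in the IgG library (x axis) and in the IGF2BP3 library (y axis) at the 24 places with clusters in both, coloured by class, with 95% exact Poisson intervals; the dashed line marks equal values. The mRNA places lie between 0.601 and 0.704 on the IGF2BP3 axis, and 4 tRNA or tRNA-like places lie above 1 on both axes.

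Set against whole genes, 7 of the 10 genes that ranked highest by exonic cluster reads of IGF2BP3 held an IgG cluster, whereas 11 of all 7236 genes with such a cluster did (0.152%). In order, PABPC1 (6270 reads, rank 1), CDKN1A (4654, rank 2), PTP4A1 (4174, rank 4), MT-RNR2 (3949, rank 6), TUBA1B (3831, rank 7), HMGA1 (3741, rank 8) and CYB5B (3335, rank 9) were those 7. The remaining mRNA genes, ACTG1 (1238 reads) and PSMD12 (653 reads), ranked 49 and 147.

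Target genes were those with at least 1 exonic cluster of more than 10 CPM, a scale on which all cluster reads of the library sum to the same fixed total, and more than 0.5 conversions per read. The criteria follow the methods of the study. These criteria were met by 4610 of the 7236 genes with an exonic cluster (63.7%), and by 20.6% of the 20046 protein-coding genes. Of the 4610 targets, 4601 had no IgG cluster in the gene body on their strand. The 20 of them with the most reads held 1676 to 4452 reads each and 5.99% of all IGF2BP3 reads, compared with a median of 69.0 reads over all targets. Their top cluster lay in a 3′UTR in 17 cases. They were chosen by their reads, so that these values are a description.

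A ligand and a receptor-like protein led the order. KITLG, which encodes stem cell factor, had 4452 reads in 27 clusters with 0.717 conversions per read (0.692 to 0.742). Its top cluster held 1158 reads at chr12:88495080-88495927 in the 3′UTR. DCBLD2, a transmembrane receptor-like protein gene, had 4172 reads in 31 clusters, with 1217 in its top cluster. EREG, the gene of the EGF receptor ligand epiregulin, had 2556 reads in 17 clusters, and ERRFI1, a feedback inhibitor of EGF receptor signalling, had 1741 in 16. FAT1, a giant protocadherin, had 2759 reads spread over 93 clusters, none with more than 167 reads.

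Other genes were concentrated in 1 cluster. TMED2, a cargo receptor of the early secretory pathway, had 2587 of its 2720 reads in a 3′UTR cluster of 1235 nt at chr12:123596615-123597849, the cluster with the most reads of the library. H3-3B, a gene of the histone variant H3.3, had 1776 of 1785 reads in 1 of its 2 clusters. EEF2, the translocation factor of translation elongation, had 2237 of 2895 reads in its top cluster at chr19:3976176-3976596. PAICS, an enzyme of purine synthesis, had 1723 of 2147. All 4 of these clusters lay in 3′UTRs.

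Growth and cell cycle regulators were represented by MDM2, an E3 ubiquitin ligase gene (2276 reads), CCND1, which encodes cyclin D1 (1944), and ARPP19, an inhibitor of the phosphatase PP2A in mitosis (2315). NFAT5, a transcription factor of the osmotic stress response, had 2436 reads in 66 clusters. BZW1, a regulator of start codon selection, had 1965 reads, CANX, the ER chaperone calnexin, 1925, PHLDA1 1760 and ITPRID2 1676. Conversions per read of the 20 genes had a median of 0.643, beside 0.661 over all targets.

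Sequence copies touched 7 of the 20 genes. In the 40 nt around the strongest position of the top cluster, NFAT5 had 40 other places in the genome with at most 3 mismatches, PABPC1P4 had 4, PABPC3 and BZW1 had 2 each, and ARPP19, MDM2 and H3-3B had 1 each, while the other 13 genes had none. PABPC3, an intronless poly(A)-binding protein gene, had 2301 reads, and the pseudogene PABPC1P4 had 2249. Both matched PABPC1 in these 40 nt, so that reads cannot be assigned to one of them with certainty, and PABPC1 itself held an IgG cluster. MT-ND1, a mitochondrial gene of respiratory complex I, had 2070 reads with 0.102 conversions per read (0.0891 to 0.117). Its top cluster of 1832 reads had 0.0486. That cluster, at chrM:3267-3371, began before the gene, which starts at position 3307. Its reads therefore cannot be counted as those of MT-ND1 alone. MT-ND1 met the criteria through another of its 5 clusters. The other 19 genes lay between 0.580 and 0.717.

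**Figure D5:**
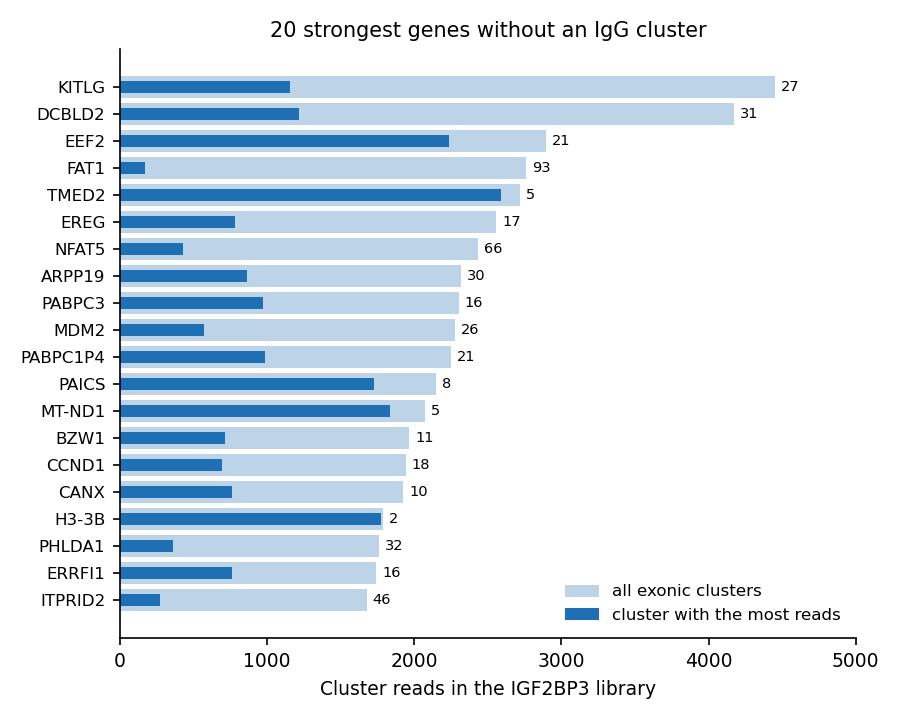
Cluster reads in the IGF2BP3 library (x axis) of the 20 target genes with the most reads and no IgG cluster (y axis), as the sum over exonic clusters (light bars) and in the cluster with the most reads (dark bars), with the number of clusters beside each bar. TMED2 and H3-3B hold nearly all reads in 1 cluster, and FAT1 spreads 2759 reads over 93.

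All 20 genes had exonic clusters in each of the other 4 IGF2BP3 libraries. All 20 ranked within the first 100 genes by cluster reads in 3 of them, and 16 did so where RNase T1 was at 1/1 U/µL. The exceptions under that treatment were H3-3B (rank 102), MT-ND1 (rank 111), PABPC3 (rank 188) and PABPC1P4 (rank 317). KITLG ranked between 2 and 4 and DCBLD2 between 3 and 6 in all 5 libraries.

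The targets without an IgG cluster were also ranked per kb of canonical transcript, among those with at least 100 reads. SNHG16, a snoRNA host gene, had 2720 reads per kb from 1354 reads, and SNHG29, another host gene, had 1690 from 747. The non-coding gene ENSG00000250568 had 2410 reads per kb from 758 reads in 1 cluster, and the pseudogene PABPC1P1 had 1480 from 876. At 40 nt around their strongest position both matched PABPC1. MT-ND1, with 2170 reads per kb, completed these 5, but most of its reads lay in the cluster that began before the gene. The median over all targets was 22.9 reads per kb.

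Of 15 listed known IGF2BP targets, 10 had an exonic IGF2BP3 cluster, 9 met the target criteria and 1, HMGA1, held an IgG cluster, beside 0.152% of all genes with an exonic cluster. CCND1 (1944 reads), CD44, a hyaluronan receptor gene (1365), HMGA2, a paralog of HMGA1 (1162), CCNG1 (566), CDK6 (537), ACTB (409) and MYC (268) had no IgG cluster, with 0.612 to 0.689 conversions per read. CCND3 had 16 reads and did not meet the criteria. IGF2, H19, BTRC, LIN28B and ABCB1 had no cluster in either library. Among the paralogs, IGF2BP2 (55 reads) and IGF2BP3 (73 reads) met the criteria, and IGF2BP1 had no cluster. Over all members both shares, 9 of 15 and 2 of 3, stand beside 20.6% of protein-coding genes. Among members with an exonic cluster, 9 of 10 and 2 of 2 stand beside 63.7% of all such genes, the base used for the other lists.

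All 12 listed mRNAs that are abundant in most cells met the target criteria, with 46 to 3831 reads and a median of 515.0, and 2 of them, TUBA1B and ACTG1, held an IgG cluster. Over all genes with an exonic cluster these shares were 63.7% and 0.152%. GAPDH (371 reads), EEF1A1 (453), TPT1 (577), ENO1 (365), HSP90AB1 (657), RPLP0 (298), RPS3 (46), PKM (261) and LDHA (874) had none. EEF2, with 2895 reads, had no IgG cluster either, although its IGF2BP3 reads exceeded those of ACTG1 and PSMD12.

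Of 14 listed small non-coding RNAs transcribed by RNA polymerases II and III, other than tRNAs, 13 were annotated under these names and 9 had an IGF2BP3 cluster. Of these 9, 2 met the criteria, beside 63.7% of all genes with an exonic cluster. None had an IgG cluster, and with 0.152% of all genes holding one nothing is read from that. The Y RNA RNY1 had the most reads (321, with 0.368 conversions per read), followed by the signal recognition particle RNAs RN7SL1 (81) and RN7SL2 (73) and the RNase MRP RNA RMRP (64). RNU5A-1 (29 reads) and RNY3 (14 reads) met the criteria. RN7SK, RNU1-1, RNU2-1 and RNU6-1 had no cluster in either library.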

How the data were processed

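The authors prepared the libraries from HCT116 cells and, per the labels and the study's methods, demultiplexed with bcl2fastq (2.20.0.422), extracted UMIs and removed duplicates with UMI-tools (1.1.1), trimmed with Trimmomatic (0.30) so that lengths of 18 to 45 nt remained, mapped with Bowtie (0.12.7, up to 3 mismatches) onto GRCh38.p13 and built clusters with PARalyzer. The deposited values are counts of reads and of T-to-C conversion events per cluster, for each library on its own. The treatment of reads with several alignments is not given in the sources used here. In the paragraph on gel extraction the methods write a different lysate RNase I concentration for the IGF2BP3 library than the labels do, and the labels were followed.

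Clusters were placed on GENCODE 44 on their strand, with the 3′UTR before coding sequence, 5′UTR, other exons and introns. Names and sequences of nuclear tRNA loci came from a RefSeq table of GRCh38.p14, and the strand of a locus was assigned where the B box GNTCNANNC stood in its 3′ part (385 of 443 loci). Places were shared at an overlap of at least 1 nt on the same strand. Copies were searched over the primary chromosomes without gaps at up to 3 mismatches. Each cluster was given to a single gene by exon overlap, protein-coding genes first, also where it overlapped several genes. CPM is relative to cluster reads, so that 10 CPM is 8.03 reads in the IGF2BP3 library. Intervals are 95% Wilson for shares, exact Poisson for conversions per read and exact binomial for ratios of reads. Named genes were those holding or nearest to an IgG cluster, the 20 targets without an IgG cluster with the most exonic reads, the 5 with the most reads per kb among those with at least 100 reads, and the members of the gene lists, of which 1 is counted in its list but not reported here by name. The members, lists and rules were chosen with earlier results of these data known. Alternatives changed the annotation order, strand, overlap, scaling, conversion measure and target criteria. The code was tested on simulated clusters and sequences. Python 3.11.15, pandas 2.3.3, scipy 1.17.1, pysam 0.24.0 and samtools 1.23.1 were used.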

Additional observations from a re-analysis of the deposited data

How the results depend on the processing

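The number of IgG clusters in 3′UTRs (9) and of places with an IGF2BP3 cluster (24) stayed within 1.5 times under each alternative, at 8 with the coding sequence first and at 23 when at least 0.5 of the IgG cluster's length had to be covered. The ratio of IGF2BP3 to IgG reads at the places, 50.9, was 10.8 with reads scaled by shared length, 57.7 without the IgG cluster with the most reads, on TRR-CCG2-1, and 88.1 without the tRNA loci, an alternative chosen after seeing the data. The ratio of conversions per read, IGF2BP3 over IgG, was 1.01 (0.880 to 1.17), 0.871 as events over all events and 1.23 as a median over clusters. The share of IGF2BP3 reads in 3′UTRs exceeded that of IgG reads by 54.8 percentage points, by 35.0 over clusters and by 47.8 with the coding sequence first. Of the 20 strongest genes, 13 stayed when ranked by the top cluster and 6 by reads per kb. With more than 0.75 conversions per read 17 stayed, and TMED2, MT-ND1 and CANX left. Target genes numbered 4610, with 6544 above 5 CPM and 2991 above 20 CPM. They numbered 4955 above 0.25 conversions per read and 2590 above 0.75. No paired analysis was possible because each condition has 1 library, and for the same reason no replicate could be left out. The control rests on 324 reads in 1 library, which limits every comparison with it.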
